A study of Mus musculus with 21 samples.

Results

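The mu-class glutathione S-transferases of the mouse are encoded by 7 genes, Gstm1 to Gstm7, and all 7 were found among the 46078 genes of the liver count table by the symbol that GENCODE M21 gives each Ensembl identifier. RNA came from whole liver of male mice without cystathionine γ-lyase (gene Cth, called Cse in the study; labelled cse and written KO here) and from comparison animals labelled WT, which the study's text calls heterozygous (Cse+/-), so that WT is a label and not a statement about both alleles. The Cse knockout line was kept on a 129/C57BL/6 background, and mice were at least 9 weeks old when the diets began. After 3 days on a calorie-restricted control diet, both genotypes were given, still calorie restricted, the control diet (CTR), a diet without cysteine (noCys) or a diet without tryptophan (noTrp) for 2 days, with the other amino acids of a depleted diet raised in proportion. There were 21 libraries, each titled as a separate biological replicate. The control diet is represented by 3 WT and 4 KO livers, the noCys diet by 4 WT livers and 3 KO livers (replicates 1, 3 and 4), and the noTrp diet by 2 WT and 5 KO livers. KO animals fed noCys could neither eat cysteine nor make it from cystathionine, WT animals fed noCys could still make it, and the noTrp diet served as the loss of another amino acid.

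Glutathione S-transferases join the thiol of glutathione, a tripeptide built from glutamate, cysteine and glycine, to reactive electrophiles, which are then exported and broken down. The mu-class enzymes are cytosolic dimers, abundant in rodent liver, and they act on epoxides, quinones and aldehydes such as those formed by lipid peroxidation. Several of their genes are among the classical targets of NRF2, a transcription factor held low by KEAP1 and released by oxidants and electrophiles, which binds antioxidant response elements. The question put to them here was how each of the 7 genes stood when cysteine, the amino acid that limits glutathione synthesis, was missing from the diet and could not be made.

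The total count per library ran from 8889951 to 27230852, and values are given as CPM, that is, counts in proportion to the library total after TMM scaling. Cth lay between 108 and 452 CPM in the WT libraries and between 6.34 and 14.99 CPM in the KO libraries, with no KO library as high as any WT library. All 7 hepatocyte markers examined were above 1 CPM in every library, and the summed markers of adipocytes, muscle and pancreas reached at most 7.47, 2.38 and 0.85 CPM. A gene was called changed when its adjusted p in edgeR's quasi-likelihood test was under 0.05, with Benjamini-Hochberg adjustment over 14370 genes. In bulk tissue a change in the number of cells of a type and a change in the RNA per cell cannot be told apart.

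The 7 genes lie in 1 cluster on chromosome 3, within chr3:107895821-108044894 of GRCm38, a span of 149.1 kb. Gstm5 (ENSMUSG00000004032, chr3:107895821-107898686) is on the plus strand at one end. On the minus strand follow Gstm7 (ENSMUSG00000004035, chr3:107926334-107931817), Gstm6 (ENSMUSG00000068762, chr3:107938847-107943749), Gstm3 (ENSMUSG00000004038, chr3:107963696-107969283), Gstm2 (ENSMUSG00000040562, chr3:107981702-107986453), Gstm1 (ENSMUSG00000058135, chr3:108012255-108017973) and Gstm4 (ENSMUSG00000027890, chr3:108040408-108044894). In the libraries of KO mice without cysteine, the 4 genes at the Gstm4 end (Gstm3, Gstm2, Gstm1 and Gstm4) were higher than in every other group, and the 3 at the Gstm5 end did not pass the test. The sequences below are the proximal promoters of these 4 genes and of Gstm5, shown because the families of stress-responsive factors that the pathway is known for bind short DNA motifs and because the genes differed in response. They are RefSeq sequences of GRCm38.p6, written 5′ to 3′ on the gene's own strand and ending at the base before the GENCODE start, and capitals mark a match to any of 4 motifs searched on both strands.
Gstm1, minus strand, chr3:108017974-108018223: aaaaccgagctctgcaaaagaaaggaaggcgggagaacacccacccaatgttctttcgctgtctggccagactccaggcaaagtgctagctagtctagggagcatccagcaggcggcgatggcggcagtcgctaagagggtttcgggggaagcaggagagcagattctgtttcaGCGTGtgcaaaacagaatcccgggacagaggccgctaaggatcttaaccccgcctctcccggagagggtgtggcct
Gstm2, minus strand, chr3:107986454-107986670: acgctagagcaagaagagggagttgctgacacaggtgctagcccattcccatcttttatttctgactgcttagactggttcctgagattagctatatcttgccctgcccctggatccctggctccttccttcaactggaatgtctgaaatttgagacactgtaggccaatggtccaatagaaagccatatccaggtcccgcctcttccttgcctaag
Gstm3, minus strand, chr3:107969284-107969424: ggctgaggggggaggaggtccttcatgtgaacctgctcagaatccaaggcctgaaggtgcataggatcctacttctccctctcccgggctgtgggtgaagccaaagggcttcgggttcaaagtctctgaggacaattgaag
Gstm4, minus strand, chr3:108044895-108045109: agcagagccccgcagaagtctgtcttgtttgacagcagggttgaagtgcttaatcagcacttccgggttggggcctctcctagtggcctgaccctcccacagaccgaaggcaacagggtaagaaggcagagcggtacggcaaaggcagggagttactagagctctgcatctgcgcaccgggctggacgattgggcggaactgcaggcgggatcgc
Gstm5, plus strand, chr3:107895604-107895820: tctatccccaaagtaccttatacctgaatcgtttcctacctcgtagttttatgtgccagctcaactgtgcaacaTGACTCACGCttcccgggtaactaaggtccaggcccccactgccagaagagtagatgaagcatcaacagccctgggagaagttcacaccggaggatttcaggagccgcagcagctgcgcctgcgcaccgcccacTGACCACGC

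The motifs were the antioxidant response element core TGACNNNGC, present in 10.2% of 32817 RefSeq promoter windows of 250 bases, the AP-1 site TGANTCA (6.75%), the core GCGTG of the element bound by the aryl hydrocarbon receptor (28.1%), and the TATA box TATAAA (12.4%). In the window before the first RefSeq start of each gene, Gstm5, which did not rise, had the antioxidant response element core (TGACCACGC, 42 bases before its RefSeq start). Gstm5 also had an AP-1 site (TGACTCA, 176 bases before the start), and GCGTG on the opposite strand overlapped both of these matches. Gstm1 held 1 GCGTG, 76 bases before its start, and Gstm7 held TATAAA, 231 bases before its start. No match was found in the windows of Gstm2, Gstm3, Gstm4 and Gstm6. The last 109 of the 250 bases searched for Gstm3, 35 for Gstm4, 33 for Gstm2 and 15 for Gstm6 lie within the GENCODE gene. A second RefSeq start of Gstm7 had the antioxidant response element core TGACAAAGC, 129 bases before it. A second RefSeq start of Gstm1 had TATAAA 30 bases before it and GCGTG 231 bases before it. A match describes letters only, and the windows do not reach distal elements.

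**Figure D1:**
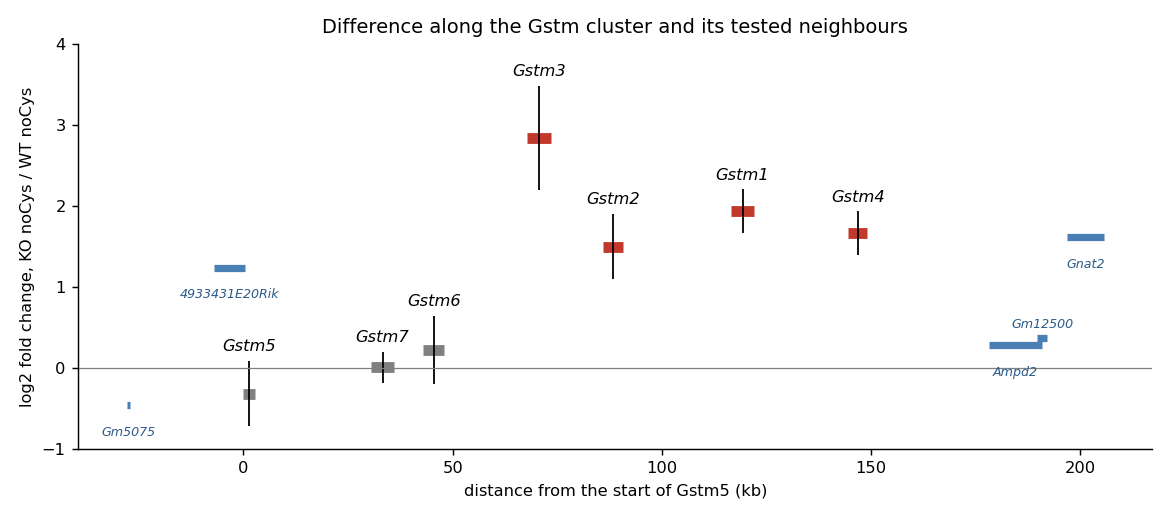
Log2 fold change of KO noCys over WT noCys (vertical axis) for each gene plotted against its distance in kb from the start of Gstm5 (horizontal axis). Red bars are Gstm genes that passed the test, grey bars Gstm genes that did not, blue bars the other tested genes nearby, and vertical lines 95% intervals. Gstm3, Gstm2, Gstm1 and Gstm4, which are neighbours at one end, lie between 1.498 and 2.84, whereas Gstm7, Gstm6 and Gstm5 lie between -0.32 and 0.22.

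Gstm1, a major mu-class enzyme of mouse liver, was by far the most abundant member in every group. Levels between genes were compared as CPM per kb of annotated exon. In WT mice on the control diet Gstm1 stood at 812 ± 106 CPM per kb (SD, n = 3). It was followed by Gstm6 at 42.4 ± 12.9, Gstm2 at 40.2 ± 9.68 and Gstm7 at 38.4 ± 1.64 CPM per kb, neighbours in the order whose differences were smaller than the spread between libraries. Gstm4 at 25.1 ± 2.18, Gstm3 at 16.0 ± 3.60 and Gstm5 at 4.91 ± 0.99 CPM per kb followed, and these steps were larger than the SD. Gstm1 thus made up 83.0% of the summed per-kb level of the 7 genes in WT CTR.

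Without cysteine, livers of KO mice held more RNA of 4 members than livers of WT mice on the same diet: Gstm1 rose 3.82-fold, Gstm2 2.82-fold, Gstm3 7.16-fold and Gstm4 3.16-fold. Gstm5, Gstm6 and Gstm7 did not pass the test. Of all genes tested 28.2% were called in this comparison and 14.8% were called higher, against 4 of 7 members called, all of them higher. The median log2 fold change was 1.498 over the members and -0.015 over all genes.

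Gstm1 stood at 3871, 3899 and 3144 CPM in the 3 KO noCys livers and at 813, 1005, 1112 and 879.9 CPM in the 4 WT noCys livers. The lowest KO noCys library was above every one of the other 18 libraries, the highest of which was a WT CTR liver at 1325 CPM. The log2 fold change was 1.93 (SE 0.13, 95% interval 1.66 to 2.20, edgeR adjusted p = 8.73e-09), and by p-value Gstm1 ranked 4 among the 14370 genes. Gstm2, whose product is also active in liver, was at 136, 120.2 and 107 CPM in KO noCys and at 38.2, 44.8, 48.8 and 39.8 CPM in WT noCys. The groups did not overlap, although the distance to the other diets was shorter: the highest library outside KO noCys, a WT CTR liver, reached 81.9 CPM. The log2 fold change of Gstm2 was 1.498 (SE 0.19, edgeR adjusted p = 1.45e-05).

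Gstm3, a member that stood low in the control livers, had the largest fold change of the 7 and the widest spread. It was at 182, 153 and 95.4 CPM in KO noCys and at 25.1, 19.8, 17.3 and 17.7 CPM in WT noCys. All KO noCys libraries were higher than all others, but 1 library outside the group, WT noTrp replicate 1, reached 53.9 CPM. The log2 fold change was 2.84 (SE 0.31, 95% interval 2.20 to 3.48, edgeR adjusted p = 2.87e-06). Gstm4, at the end of the cluster next to Gstm1, was at 102, 108 and 83.3 CPM in KO noCys and at 31.5, 35.3, 27.3 and 29.7 CPM in WT noCys. The groups were far apart, and no library outside KO noCys exceeded 46.9 CPM. Its log2 fold change was 1.66 (SE 0.13, edgeR adjusted p = 3.83e-08, rank 15 of 14370).

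The other 3 members did not pass the test in this comparison. Gstm5, the most divergent member in coding sequence and a low one in liver, was at 5.53, 5.48 and 5.78 CPM in KO noCys and at 7.18, 6.53, 6.36 and 7.76 CPM in WT noCys. The KO noCys values all lay below the WT noCys values, with a log2 fold change of -0.32 (SE 0.19, 95% interval -0.72 to 0.08, edgeR adjusted p = 0.227). Gstm6 was at 74.0, 58.4 and 75.1 CPM against 51.3, 53.7, 69.0 and 62.8 CPM, and the groups overlapped. Its log2 fold change was 0.22 (95% interval -0.20 to 0.64, edgeR adjusted p = 0.427). Gstm7 was at 46.8, 51.8 and 50.4 CPM against 49.7, 44.1, 48.5 and 55.2 CPM, one range inside the other. Its log2 fold change was 0.0080 (95% interval -0.18 to 0.20, edgeR adjusted p = 0.957), an interval that leaves out any rise of the size seen in Gstm1 to Gstm4.

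**Figure D2:**
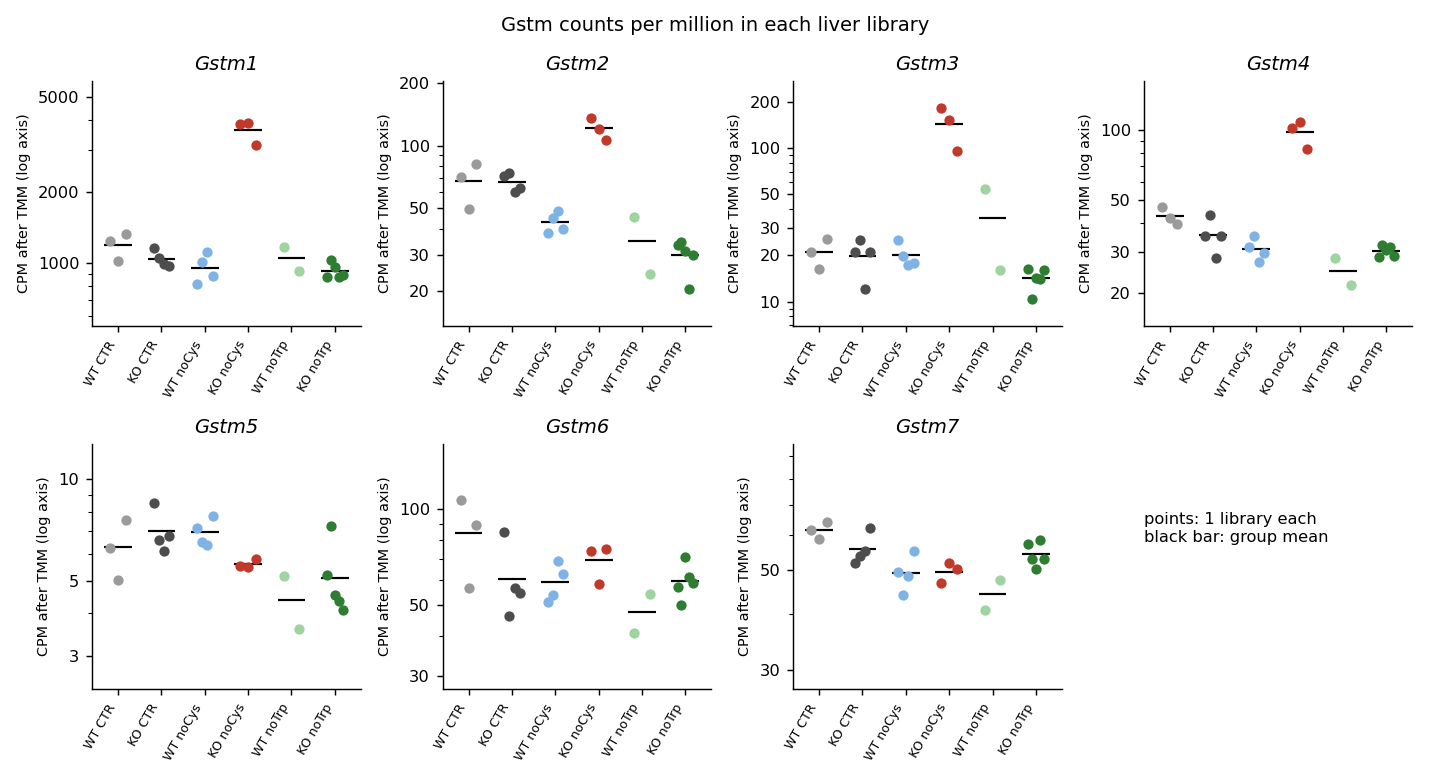
CPM after TMM scaling (vertical log axis) of each Gstm gene in every liver library, grouped by genotype and diet (horizontal axis), with points for libraries and bars for group means. For Gstm1, Gstm2, Gstm3 and Gstm4 the 3 KO noCys points lie above all points of the other groups (lowest values 3144, 107, 95.4 and 83.3 CPM), and for Gstm5, Gstm6 and Gstm7 they lie within the range of the others.

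Summed over the 7 genes, the level in KO noCys was 2779 ± 334 CPM per kb (SD, n = 3), with libraries from 2393 to 2979. On the control diet the sum was 979 ± 133 in WT and 854 ± 66.9 CPM per kb in KO (SD, n = 3 and 4). It was 771 ± 91.5 in WT noCys (n = 4), 828.8 ± 141 in WT noTrp (n = 2) and 743 ± 46.2 CPM per kb in KO noTrp (n = 5). Reads of the family made up 0.398% to 0.501% of all counts in KO noCys livers and 0.0949% to 0.156% in the others. The make-up of the sum moved as well. Gstm1 contributed 88.9% of the summed per-kb level in KO noCys and 83.6% in WT noCys, and Gstm3 contributed 3.88% and 2.02%.

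The order of the members changed with it. In KO noCys Gstm1 stood at 2470 ± 291 CPM per kb (SD, n = 3), and Gstm3, next to last in WT CTR, came next at 109.6 ± 33.8 CPM per kb. Gstm2 at 72.1 ± 8.68 and Gstm4 at 57.3 ± 7.59 CPM per kb followed, but the Gstm3 libraries (72.8 to 139) and the Gstm2 libraries (63.7 to 81.0) overlapped. Gstm6 at 34.8 ± 4.69, Gstm7 at 31.0 ± 1.62 and Gstm5 at 4.38 ± 0.13 CPM per kb came last. With the length of the longest transcript in place of all annotated exons, Gstm2 stood above Gstm3 (113.8 against 109.6 CPM per kb) and Gstm6 above Gstm4 (58.7 against 57.3), so the order within these pairs rested on the length used.

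**Figure D3:**
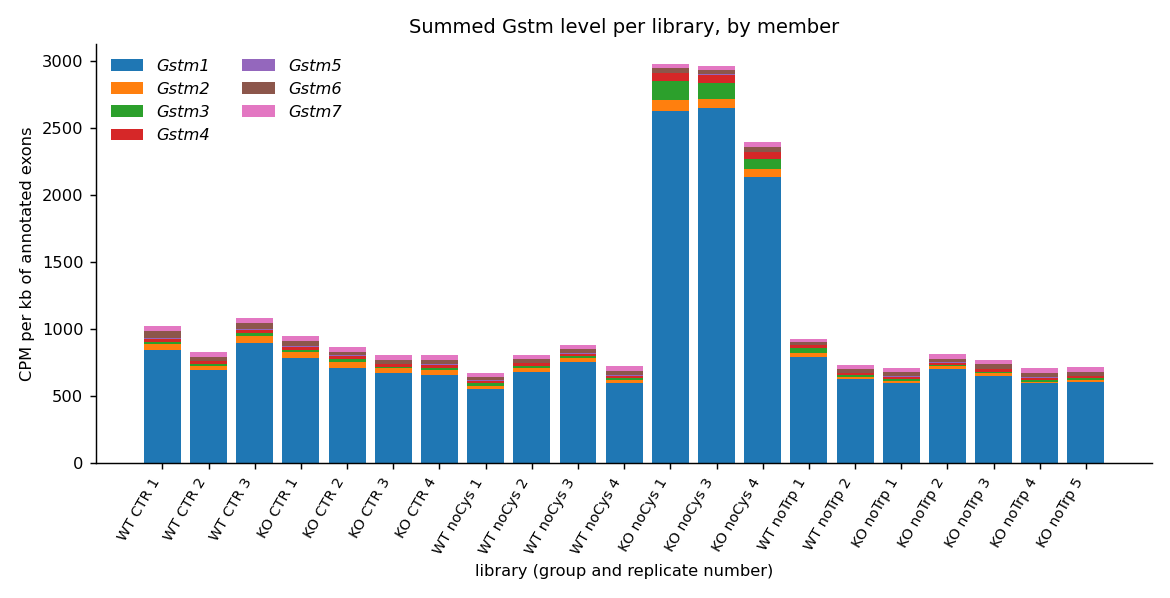
Summed CPM per kb of annotated exon of the 7 Gstm genes (vertical axis) in each library (horizontal axis, group and replicate number), divided by gene. The KO noCys bars reach 2393 to 2979 CPM per kb, and most of each bar is Gstm1.

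The rise depended on the genotype and the diet together. The effect of removing cysteine was larger in KO than in WT for the same 4 members by the test of the difference between the effects (genotype by cysteine interaction). The difference was 2.13 on the log2 scale for Gstm1 (SE 0.18, edgeR adjusted p = 2.62e-06, rank 1 of 14370) and 1.93 for Gstm4 (SE 0.18, edgeR adjusted p = 9.24e-06, rank 2). It was 2.91 for Gstm3 (SE 0.44, edgeR adjusted p = 0.000571) and 1.51 for Gstm2 (SE 0.27, edgeR adjusted p = 0.00259). Of all genes 7.44% were called in this test and 3.56% in the higher direction. Gstm6 gave 0.70 (SE 0.28, edgeR adjusted p = 0.139), Gstm7 0.15 and Gstm5 -0.49, none of them called by edgeR on all libraries. The interaction of Gstm6 was called by limma-voom with quality weights (0.79, adjusted p = 0.0442), and by edgeR without KO CTR replicate 1 or without WT CTR replicate 2.

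On the control diet the genotype alone gave no call among the members. The KO CTR livers had 1157, 1049, 993 and 972 CPM of Gstm1 and the WT CTR livers 1242, 1022 and 1325 CPM, overlapping ranges. The log2 fold changes of the 7 genes ran from -0.48 (Gstm6, edgeR adjusted p = 0.431) to 0.17 (Gstm5). edgeR called 0 members, against 0.32% of all genes. Gstm6 alone had an unadjusted p under 0.05, and it ranked 918 of 14370 genes by that p. The count of members called was 0 under each of the 28 alternatives, DESeq2 and limma-voom included.

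Removing cysteine from the diet of WT mice gave 0 calls among the 7 members in edgeR, against 0.661% of all genes. The unadjusted edgeR p was under 0.05 for 5 members. By that p they ranked 284 (Gstm4), 334 (Gstm7), 367 (Gstm2), 1067 (Gstm1) and 1105 (Gstm6) among the 14370 genes. Other tools called a few: DESeq2 2 and limma-voom with quality weights 3. The estimates were below 0 for every member except Gstm5 (0.17). Gstm2 had the largest, -0.65 (SE 0.19, edgeR adjusted p = 0.117), with WT noCys at 38.2 to 48.8 CPM and WT CTR at 70.6, 49.9 and 81.9 CPM. Gstm4 (-0.47, edgeR adjusted p = 0.0941) and Gstm7 (-0.31, edgeR adjusted p = 0.1098) were also lower in every WT noCys library than in every WT CTR library. How many of all genes separated these groups in this way was not counted. Gstm1 gave -0.33 (edgeR adjusted p = 0.249).

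Within KO, the same 4 members rose when noCys was set against CTR, where 20.2% of all genes were called and 10.6% called higher. Gstm1 rose by 1.80 (SE 0.13, edgeR adjusted p = 6.05e-08), Gstm3 by 2.85 (SE 0.31, edgeR adjusted p = 4.06e-06), Gstm4 by 1.46 (SE 0.13, edgeR adjusted p = 4.10e-07) and Gstm2 by 0.85 (SE 0.19, edgeR adjusted p = 0.00345) on the log2 scale. Gstm2 gave a smaller estimate here than against WT noCys (1.498): the KO CTR livers held 71.2, 73.9, 59.9 and 62.5 CPM, above every WT noCys liver. Gstm5 (-0.32), Gstm6 (0.19) and Gstm7 (-0.17) were not called. This comparison and those of KO noCys with WT noCys and KO noTrp share the KO noCys libraries, so their values are given side by side and not as independent evidence.

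The loss of tryptophan in KO was not accompanied by a rise in any member. Gstm1 was at 876, 1033, 959.7, 876 and 888 CPM in KO noTrp, below 3144 CPM, the lowest KO noCys library. Against KO noTrp, KO noCys was higher by 1.97 for Gstm1 (SE 0.12, edgeR adjusted p = 6.68e-09, rank 1 of 14370), 1.69 for Gstm4 (SE 0.12, edgeR adjusted p = 4.03e-08, rank 2), 3.33 for Gstm3 (SE 0.29, edgeR adjusted p = 5.32e-07) and 2.01 for Gstm2 (SE 0.18, edgeR adjusted p = 8.14e-07). Of all genes 13.9% were called in this comparison and 7.17% called higher. The other 3 members lay between -0.13 and 0.21 and were not called.

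**Figure D4:**
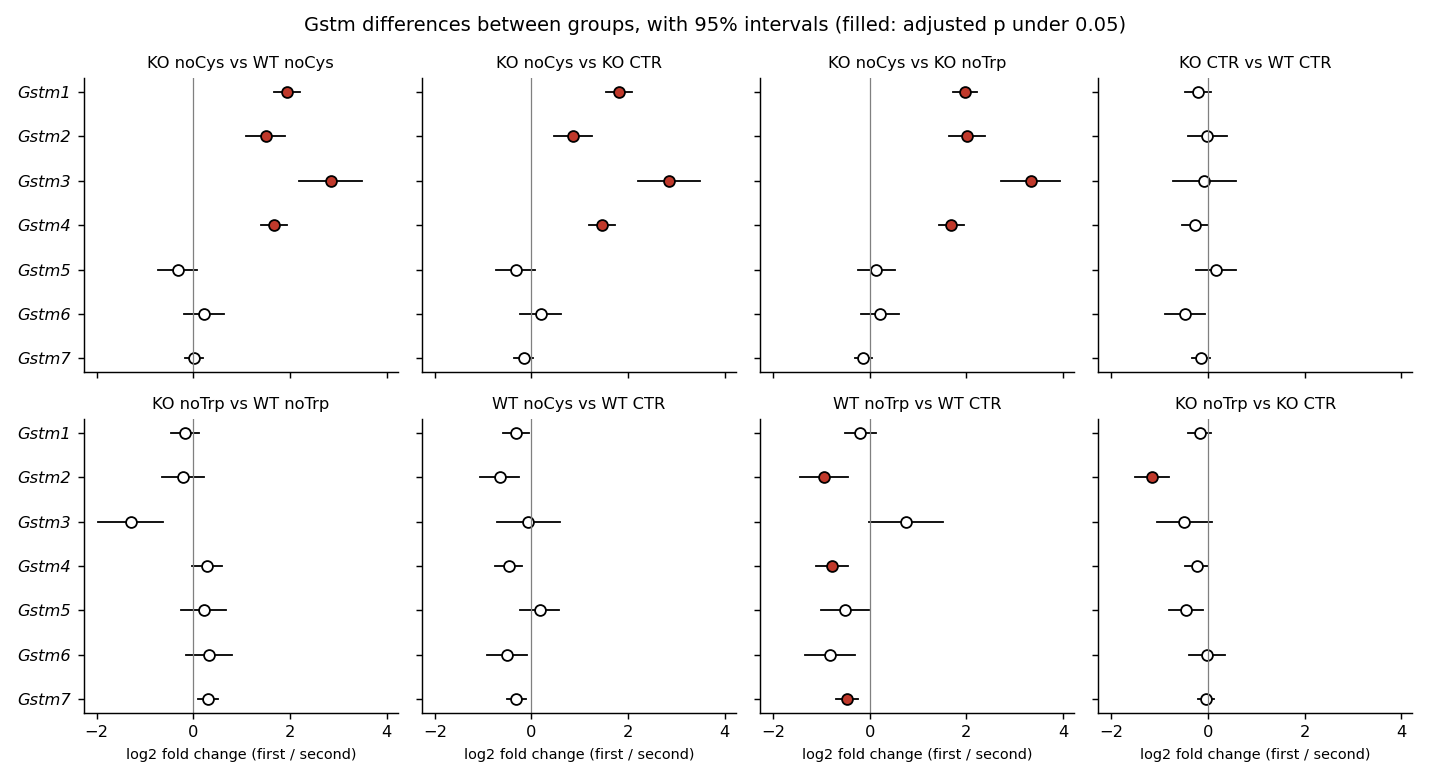
Log2 fold changes (horizontal axes, first group over second) of the 7 Gstm genes in each comparison, with 95% intervals and filled points for an edgeR adjusted p under 0.05. Gstm1 to Gstm4 are filled and to the right of 0 wherever KO noCys is the first group, and Gstm2 is the only filled member, at -1.16, in KO noTrp against KO CTR.

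Gstm2 was the member that fell without tryptophan in KO. It was at 33.6, 34.7, 31.1, 20.5 and 29.997 CPM in KO noTrp. In KO CTR it was at 71.2, 73.9, 59.9 and 62.5 CPM. The groups did not overlap, and the log2 fold change was -1.16 (SE 0.17, edgeR adjusted p = 0.00119, rank 15 of 14370). It was the 1 member of 7 called by edgeR, with 1.87% of all genes called and 1.09% called lower. Gstm5 gave -0.46 (edgeR adjusted p = 0.164), and limma-voom with quality weights called it lower (-0.54, adjusted p = 0.0430). Gstm3 gave -0.48 (edgeR adjusted p = 0.391). Gstm2 RNA was thus higher in KO than on the control diet when cysteine was missing and lower when tryptophan was missing. Marker sums of Kupffer cells and leukocytes were 115 to 188 CPM in KO noTrp against 70.5 to 143 CPM in KO CTR. Those of endothelium were 157 to 217 against 116 to 189 CPM, and those of stellate cells and fibroblasts 70.3 to 77.0 against 75.3 to 177 CPM. The mitochondrial share of all counts was 3.41% to 4.79% against 4.49% to 7.29%. The part of these differences in the fall was not tested.

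In WT mice 3 members were called lower without tryptophan, where 3.19% of all genes were called and 1.5% called lower, but only 2 libraries formed the group. Gstm2 was at 45.3 and 24.3 CPM in WT noTrp (log2 fold change against WT CTR -0.95, SE 0.24, edgeR adjusted p = 0.0351). Gstm4 was at 28.2 and 21.6 CPM against 46.9, 42.0 and 39.6 CPM in WT CTR (-0.78, SE 0.16, edgeR adjusted p = 0.0149). Gstm7 was at 40.8 and 47.7 CPM against 61.6, 58.8 and 64.0 CPM (-0.48, SE 0.11, edgeR adjusted p = 0.0243). The calls of Gstm2, Gstm4 and Gstm7 held in 22, 24 and 20 of 28 alternatives. All 3 were lost without WT CTR replicate 1, in a fit of only the groups compared and with limma-voom, and Gstm4 was the one kept without WT CTR replicate 3. With the replicate number as a block, Gstm2 (edgeR adjusted p = 0.0570) and Gstm7 (edgeR adjusted p = 0.0505) were lost. Gstm7 was also lost with library totals alone and with no filter on low counts. Without WT noTrp replicate 2, Gstm2 (edgeR adjusted p = 0.192) and Gstm4 (edgeR adjusted p = 0.0827) were lost, and without WT noTrp replicate 1, Gstm7 (edgeR adjusted p = 0.225) was. Gstm6 was at 40.9 and 54.2 CPM, below the 107, 56.6 and 89.3 CPM of WT CTR. Its log2 fold change of -0.83 was not called by edgeR (adjusted p = 0.0745) but was by DESeq2 (adjusted p = 0.0265). Gstm3 split the group, with 53.9 and 16.0 CPM. Its estimate against WT CTR was -0.38 without the higher library and 1.37 without the lower, and the second was called higher (edgeR adjusted p = 0.0217). Each fit without a WT noTrp library left 1 in that group, which was assumed to vary like the libraries of the other groups. Marker sums of other cells also differed between these groups. Those of Kupffer cells and leukocytes were 167 and 173 CPM in WT noTrp against 75.0 to 126 CPM in WT CTR, and those of endothelium 183 and 257 against 143 to 182 CPM. Stellate cell and fibroblast markers summed to 68.8 and 81.8 CPM against 119 to 145 CPM, and periportal markers to 8979 and 11808 against 6311 to 8692 CPM. The mitochondrial share of all counts was 3.70% and 3.89% in WT noTrp against 6.51% to 7.51% in WT CTR. The part of these differences in the lower members was not tested.

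Between the genotypes on the noTrp diet no member was called by edgeR, with 0.195% of all genes called. Gstm3 and Gstm7 had an unadjusted p under 0.05 and ranked 98 and 347 of 14370 genes by that p. Gstm3 was at 16.2, 10.4, 14.3, 14.0 and 16.0 CPM in KO noTrp. Its log2 fold change against WT noTrp was -1.30 (SE 0.32, edgeR adjusted p = 0.1004), and DESeq2 called it (adjusted p = 0.0229). The value rested on which WT noTrp library was used: it was -0.17 without replicate 1 (edgeR adjusted p = 0.922) and -1.92 without replicate 2 (edgeR adjusted p = 0.00204), with the lone library again assumed to vary like the other groups.

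Because the genes are near copies, reads can be assigned to the wrong member. The coding sequence of Gstm1 was 89.4% identical to that of Gstm3, 85.9% to Gstm2 and 81.2% to Gstm4, and the lowest identity among members was 70.4%, between Gstm3 and Gstm5. The processed pseudogene Gstm2-ps1 (ENSMUSG00000107369, chr5:116632908-116633564, minus strand) matched Gstm1 at 97.9% of aligned bases, against 84.7% for Gstm2, for which it is named. Of the 61-base words of the longest transcript, the read length of the study, 25.7% of those of Gstm3 and 19.0% of those of Gstm1 occurred in a transcript of another gene, against 0 for Gstm4 and Gstm7. The share was 6.18% for Gstm2, 9.09% for Gstm5 and 8.67% for Gstm6. Words shared with another member were 163 of 1251 for Gstm3, 98 of 1229 for Gstm1, 65 of 1119 for Gstm6 and 0 for Gstm2 and Gstm5. The log2 fold changes of Gstm4 and Gstm7 were 1.66 and 0.0080. How reads that fit more than 1 place were counted was not stated. How many reads were assigned to the wrong member was not tested.

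Gstm2-ps1 was at 156 to 213 CPM in KO noCys and at 34.1 to 64.2 CPM in all other libraries, with a log2 fold change of 2.25 against WT noCys (SE 0.18, edgeR adjusted p = 3.83e-08). For every 1000 counts of Gstm1 it had 49.7 to 54.6 counts in KO noCys and 27.3 to 54.9 in the other libraries, and how many of its counts came from Gstm1 transcripts was not tested. Gstm3 had 30.3 to 47.1 counts for every 1000 of Gstm1 in KO noCys against 15.5 to 30.9 in WT noCys, and outside these groups it had 46.1 in WT noTrp replicate 1 and 10.05 to 24.0 in the remaining libraries. Gstm2 had 33.3 ± 2.23 counts for every 1000 of Gstm1 in KO noCys (SD, n = 3), 45.2 ± 1.33 in WT noCys (n = 4), 64.2 ± 4.50 in KO CTR (n = 4), 55.8 ± 6.56 in WT CTR (n = 3), 32.4 ± 8.86 in WT noTrp (n = 2) and 32.3 ± 5.48 in KO noTrp (n = 5).

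Other genes near the cluster were few. Within 100 kb of the span, 18 genes besides the members are annotated, and 5 of them passed the filter on low counts. Ampd2, an AMP deaminase whose start site is 41.8 kb beyond Gstm4's end of the cluster, had a log2 fold change of 0.28 in KO noCys against WT noCys (edgeR adjusted p = 0.180) at a mean of 22.6 CPM. Gnat2, a transducin subunit whose start site is 47.9 kb beyond that end, rose by 1.62 (edgeR adjusted p = 0.00298) at a mean of 1.05 CPM. The antisense gene 4933431E20Rik, which overlaps Gstm5, rose by 1.24 (edgeR adjusted p = 0.0268) to 1.13 to 2.001 CPM in KO noCys, a call held in 24 of 28 alternatives. The strand setting of the counting was not stated, so reads in the stretch where Gstm5 and its antisense partner overlap cannot be told apart. Of the 61-base words of Gstm5, 9.09% are shared with that partner. Gm5075 (-0.46) and Gm12500 (0.37) were not called.

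The genes around the family in the glutathione pathway were counted by lists in the same comparison, in which 14.8% of all genes were called higher and 13.4% lower, and the changes given for them are on the log2 scale. Of 17 other glutathione transferases tested, 5 rose and 4 fell, with a median log2 fold change of -0.027. The alpha-class Gsta1 rose by 3.32 (SE 0.57, edgeR adjusted p = 0.000263), from 0.47 to 5.10 CPM, and Gsta2 by 2.73, from 11.2 to 75.2 CPM. The omega-class Gsto2 rose by 2.52 at under 1 CPM, and the pi-class Gstp3 rose by 1.37. Gstt1, Gstt3, Gstk1 and Mgst1, of the theta, kappa and microsomal classes, fell, with log2 fold changes of -0.69, -0.82, -0.42 and -0.35.

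Of 15 tested genes of glutathione synthesis, recycling and export, 7 rose and 2 fell (median 0.40). Abcc4 and Abcc3, export pumps that carry glutathione conjugates among other substrates, rose by 2.83 and 1.46, Chac1, which cleaves glutathione, by 2.32, and Ggct, which acts on γ-glutamyl products, by 0.98. Gclc and Gclm, the subunits of the rate-limiting enzyme of glutathione synthesis, had values of 0.40 (edgeR adjusted p = 0.102) and -0.11 (edgeR adjusted p = 0.567). Of 20 NRF2 targets outside the transferases, 10 rose and 2 fell (median 0.48), among them the quinone reductase Nqo1 at 1.87, Cbr3 at 1.86 (called in 26 of 28 alternatives), Aox1 at 1.47, Ephx1 at 1.38 and the sulfiredoxin Srxn1 at 1.35. The study's text names Nqo1, Srxn1, Gsta1, Gsta2, Chac1 and Gstm1 to Gstm4 as raised in liver, partly on these very libraries. The direction of these genes is therefore not independent evidence. Of NRF2 and its partners 1 of 6 rose, Bach1 at 0.40 (called in 27 of 28 alternatives), while Nfe2l2, the gene for NRF2 itself, was at -0.083 and Keap1 at -0.030, both not called and named here after their values were seen.

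Lists for other regulators of drug metabolism were counted as well. Of 14 tested genes of CAR and PXR, nuclear receptors for xenobiotics, 1 rose and 5 fell (median -0.44). The log2 fold changes were -3.45 for Cyp2b10, -1.65 for Cyp2c29 and -1.24 for Cyp3a11, and Cyp2b9 rose by 5.49, from 0.30 to 16.9 CPM, a call lost in 2 of 28 alternatives. Of 5 genes of the aryl hydrocarbon receptor list, Cyp1a2 rose by 0.97 and 4 were not called (median -0.43). On the control diet, KO against WT, 1 gene of these 6 lists was called, a transferase of the other classes that was lower. Against KO noTrp, 10 of the 20 NRF2 targets were higher in KO noCys and 0 lower, against 7.17% and 6.75% of all genes. In that comparison 1 CAR and PXR gene was higher and 6 lower, and 4 other transferases were higher and 3 lower. Against KO CTR, 8 NRF2 targets were higher in KO noCys and 2 lower, against 10.6% and 9.59% of all genes.

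**Figure D5:**
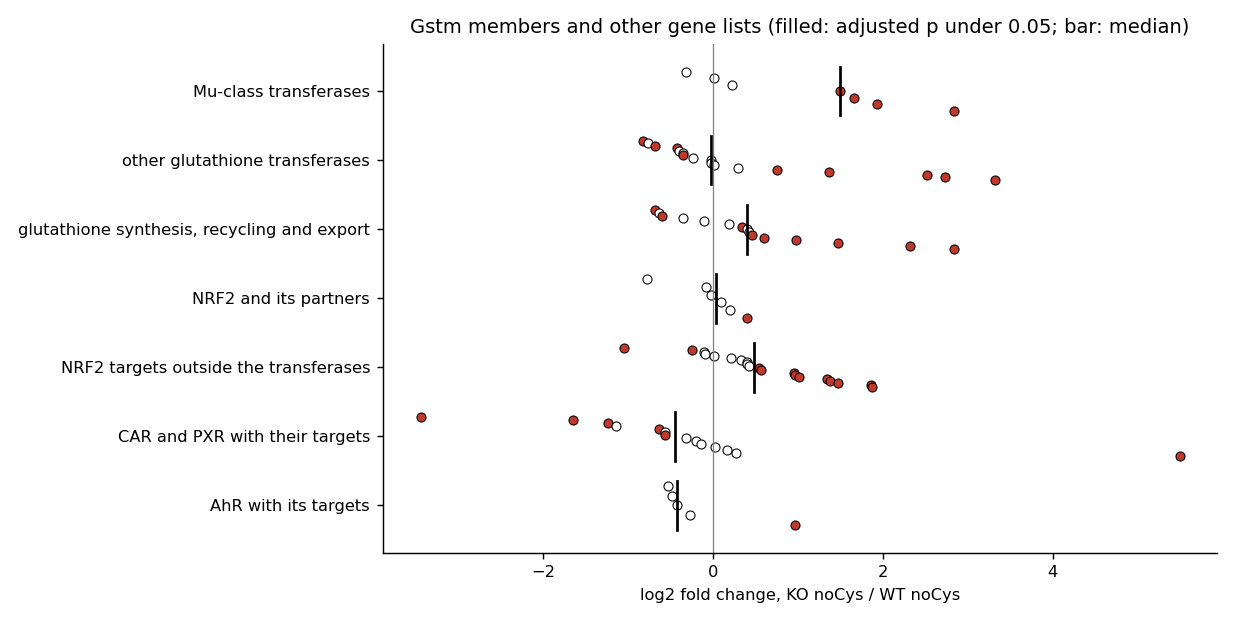
Log2 fold change of KO noCys over WT noCys (horizontal axis) for the Gstm members and for the genes of each list (vertical axis), with 1 point a gene, filled where it passed the test, and a bar at the median. Gstm1 to Gstm4 lie between 1.498 and 2.84, NRF2 targets have a median of 0.48, and genes of CAR and PXR have a median of -0.44.

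Markers of the liver's cell types differed in level between KO noCys, the group that carried the rise, and WT noCys. The 7 hepatocyte markers summed to 42881 to 71439 CPM in KO noCys and to 96578 to 109879 CPM in WT noCys, and 3 of them fell on the log2 scale (Alb -1.15, Ttr -1.03 and Fgb -0.57). The 9 pericentral markers summed to 12975 to 14917 CPM against 11414 to 13960 CPM, and the 6 periportal markers to 5977 to 8265 CPM against 9506 to 10544 CPM. Of the pericentral markers 1 rose and 0 fell, and of the periportal markers 1 rose and 2 fell. Summed markers of cholangiocytes (16.2 to 18.1 against 34.2 to 57.9 CPM), endothelium (119 to 135 against 137 to 215 CPM) and erythroid cells (128 to 158 against 183 to 374 CPM) were lower in every KO noCys library. Those of Kupffer cells and leukocytes (83.8 to 98.1 against 93.4 to 155 CPM) and of stellate cells and fibroblasts (65.3 to 87.0 against 85.3 to 126 CPM) overlapped. By single genes, 2 of 5 tested cholangiocyte markers, 3 of 7 endothelial, 3 of 5 erythroid, 1 of 7 Kupffer cell and leukocyte and 1 of 7 stellate cell and fibroblast markers fell, as did the 1 adipocyte marker tested, and 0 rose in any of these lists, against 13.4% of all genes called lower and 14.8% higher. Summed markers of adipocytes, muscle and pancreas reached at most 0.51, 2.38 and 0.064 CPM in the KO noCys livers. In the other KO groups, the hepatocyte markers summed to 74221 to 85322 CPM in KO CTR and 62105 to 86990 CPM in KO noTrp. The cholangiocyte markers summed to 19.7 to 62.4 and 25.7 to 48.4 CPM, and the endothelial markers to 116 to 189 and 157 to 217 CPM. The erythroid markers summed to 179 to 338 and 108 to 219 CPM. KO noCys thus overlapped KO CTR for endothelium, and KO noTrp for hepatocytes and erythroid cells. The part of these shifts in the rise of Gstm1 to Gstm4 was not tested.

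Across the 21 libraries, Pearson correlations of log2 CPM among Gstm1 to Gstm4 ran from 0.75 to 0.93, and from 0.34 to 0.77 once group means were removed, as a description of libraries that share the same groups. Gstm7 and Gstm1 had -0.20 and, within groups, -0.44. By the profile of single members, Gstm1 was most like Gstm2-ps1 (0.95), Gstm4 (0.93) and Gstm3 (0.92), Gstm3 like Gstm2-ps1 (0.94), Ephx1 (0.92), a microsomal epoxide hydrolase, and Gstm1 (0.92), and Gstm4 like Gstm1 (0.93), Gstm2-ps1 (0.93) and Ephx1 (0.89). Gstm2 was most like Gm6665 (0.88), whose transcript shares words with it, 9130409I23Rik (0.86) and Gstm4 (0.83). The members that did not rise had no other member among their nearest genes: Gstm5 was most like Phf8 (0.78), Tecr (0.75) and Utp23 (0.74), Gstm6 like Adi1 (0.77), and Gstm7 like 4930453N24Rik (0.77), Fadd (0.77) and Hsd17b2 (0.76). The mean profile of all 7 was most like Slc35d1 (0.88), Rnpepl1 (0.88), Atrn (0.86), Gm6665 (0.85), Cdc34 (0.82), Atp6v0a1 (0.82), Prkdc (0.82), Blvrb (0.82), Catsper2 (0.81) and Rsrc2 (0.80).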

How the data were processed

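The deposited file was 1 table of gene counts for 21 liver libraries. The authors selected poly(A) RNA, sequenced it paired-end with 61-cycle reads, aligned it to GRCm38 with Hisat2 2.1.0 and counted it with htseq-count 0.11.0, and the deposited counts are raw whole numbers without normalization. Strand setting and annotation release were not given in the sources used here. The table had 1 column that matched no sample and was not used. Of 46078 identifiers, 45143 were in GENCODE M21, which gave symbols and coordinates.

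Groups came from the sample titles. The analysis used edgeR 4.0.16 (R 4.3.3). Its filterByExpr (minimum count 10, minimum total 15) left 14370 genes, TMM factors were 0.883 to 1.14, and 1 one-way model over the 6 groups gave two-sided quasi-likelihood F-tests with p-values Benjamini-Hochberg adjusted over all genes tested. The study's own tool was DESeq2, and no result of the authors was used. The scripts were tested on simulated data. Each test of a member was repeated under 28 alternatives: RLE size factors, library totals alone, no filter, only the groups compared, a replicate block, and each library left out. They also included the tools DESeq2 1.42.0 and limma 3.58.1 voom with quality weights. Part of the other named genes had 25 to 28 alternatives, in KO noCys against WT noCys only. List counts, marker sums and correlations are given without alternatives, as are Gclc, Gclm, Gstt1, Gstt3, Gstk1, Mgst1, Alb, Ttr and Fgb.

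All 7 members are reported. From each list up to 4 genes with the largest called change are named, with any that the study's text names, and genes within 100 kb are named as neighbours. Likeness is Pearson's r over 21 libraries. The 3 nearest genes are given for each member, except for Gstm6, where the others are not reported here. Genes beyond this rule (Nfe2l2, Keap1, Gclc, Gclm, Gstt1, Gstt3, Gstk1 and Mgst1, and the near copies) were named after their values were seen. The members and lists were chosen with earlier results of these data known. Coding identities used GENCODE M21 and Biopython 1.88. Counts limit precision for Gstm5, at a few CPM.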

Additional observations from a re-analysis of the deposited data

Results flagged for a closer look

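In 4 of the 7 members the effect of removing cysteine differed between the genotypes by the test of that difference itself. The interaction on the log2 scale, KO effect minus WT effect, was 2.13 for Gstm1, 1.51 for Gstm2, 2.91 for Gstm3 and 1.93 for Gstm4, each with an edgeR adjusted p under 0.05. In KO the 4 genes rose, by 1.80, 0.85, 2.85 and 1.46, and in WT the estimates were -0.33, -0.65, -0.062 and -0.47, none of them called by edgeR over all groups, while DESeq2 and an edgeR fit of only the groups compared called Gstm4 lower, and limma-voom Gstm2 and Gstm4. In KO CTR, WT noCys and KO noTrp no library stood far from the rest of its group for any member or for their summed level, in 24 sets of 4 or 5 values, of which chance alone would mark about 1 in 20. The other groups, KO noCys among them, had too few libraries to be searched in this way.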

How the results depend on the processing

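The calls of Gstm1 to Gstm4 in the comparisons of KO noCys with WT noCys, KO CTR and KO noTrp and in the interaction held in 28 of 28 alternatives, as did that of Gstm2 in KO noTrp against KO CTR, and no member was called in KO CTR against WT CTR in any. Against WT noCys the log2 fold changes ran from 1.86 to 2.15 (Gstm1), 1.41 to 1.71 (Gstm2), 2.63 to 3.06 (Gstm3) and 1.58 to 1.87 (Gstm4). Scaling by library totals alone moved the median of all genes by 0.22 there, and the same 4 members were called. The other comparisons changed their counts of members called, and the cause was not tested. In WT noTrp against WT CTR the count of 3 became 0 in a fit of only the groups compared, 0 with limma-voom and 4 with DESeq2, which added Gstm6. Leaving out a library there gave counts from 0 to 4. WT noCys against WT CTR went from 0 to 1 in a fit of only the groups compared, 2 with DESeq2 and 3 with limma-voom. KO noTrp against WT noTrp went from 0 to 1 (Gstm3) with DESeq2 and with no filter on low counts, and lay between 0 and 1 with a library left out. KO noTrp against KO CTR went from 1 to 2 with limma-voom, which added Gstm5. Interaction calls were 5 with limma-voom and 4 to 5 with a library left out, the added member being Gstm6.

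Replicate numbers gave no pairing across the samples as a whole: of 41 same-numbered pairs 9 had a correlation of deviations over 0.1. Their median was -0.035, against 0.012 for pairs of unlike number, and they ran from -0.36 to 0.35. The highest was between replicate 1 of WT noTrp and replicate 1 of KO noTrp. Replicate 1 of KO noTrp also had 0.19 with that of WT noCys and 0.17 with that of KO noCys. Whether some same-numbered libraries were handled together was not tested. With the replicate number as a block, the count in WT noTrp against WT CTR was 1 (Gstm4), and no other count of members called changed. Gstm7 was then at -0.0075 in KO noCys against WT noCys and Gstm2 at 0.076 in KO CTR against WT CTR.

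The estimates that changed sign were uncalled in each case, but that of Gstm3 in WT noTrp against WT CTR was called at its upper end (1.37). In KO CTR against WT CTR, Gstm2 was at 0.063 and Gstm3 at 0.0022 with library totals alone, Gstm2 at 0.026 with no filter, and with a library left out Gstm2 ran from -0.19 to 0.16 and Gstm3 from -0.23 to 0.10. In KO noTrp against KO CTR, library totals alone gave Gstm6 0.033 and Gstm7 0.018, and limma-voom gave Gstm6 0.049. Leaving out a library there gave -0.14 to 0.18 (Gstm6) and -0.068 to 0.017 (Gstm7). Library totals alone moved the median of all genes by 0.051 there and by 0.061 in KO CTR against WT CTR. Less the median of all genes, Gstm6 was at -0.021 and Gstm7 at -0.036 under that scaling. In KO CTR against WT CTR, Gstm3 was then at -0.059 and Gstm2 at 0.0020. In KO noCys against WT noCys, library totals alone gave Nfe2l2 0.14 and Keap1 0.19, limma-voom gave Keap1 0.023, and leaving out a library gave ranges of -0.044 to 0.065 (Gstm7), -0.22 to 0.025 (Nfe2l2), -0.10 to 0.073 (Keap1) and -0.0034 to 0.65 (Gm12500). The ranges for Gstm3 were -0.22 to 0.10 in WT noCys against WT CTR and -0.38 to 1.37 in WT noTrp against WT CTR. Those in KO noTrp against WT noTrp were -0.59 to 0.31 (Gstm2) and -0.025 to 0.50 (Gstm5).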
